A study of Mus musculus with 2 samples.

Results

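Genes that move water and ions across the lung epithelium were compared between mouse lungs taken 12 weeks after treatment with a carcinogen. The set holds 10 genes, Aqp1, Aqp3, Aqp4, Aqp5, Scnn1a, Scnn1b, Scnn1g, Cftr, Slc26a4 and Atp1b1, out of 13840 named genes on the array, and was chosen by gene symbol. A probe was named for 9 of them, and Aqp4 was not analysed here. RNA from Rosa26-Foxm1 mice, which carry a transgene for the forkhead transcription factor Foxm1 and whose strain and sex the labels used here do not give, was set against RNA from wild-type male FVB/N mice. Each genotype had 1 array, on which RNA from left lobes of 3 mice had been combined. Mice of both genotypes had been given 1 intraperitoneal injection of the carcinogen 3-methylcholanthrene at 15 µg per g body weight, and then 6 weekly injections of butylated hydroxytoluene, a promoter of lung tumours, at 150 µg per g for the first and 200 µg per g for the later ones. The Rosa26 locus is active in most cell types, and the labels used here do not say which cells expressed the transgene.

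The lung is covered by a thin film of liquid whose depth is set by opposing flows of ions. Sodium enters epithelial cells through the apical sodium channel ENaC, which is built from the subunits Scnn1a, Scnn1b and Scnn1g, and is pumped out at the base of the cell by the sodium-potassium ATPase, of which Atp1b1 is a beta subunit. Chloride and bicarbonate leave through Cftr, the channel affected in cystic fibrosis. Exchangers such as Slc26a4 (pendrin) release bicarbonate in exchange for chloride, and water follows through aquaporins. In lung, Aqp1 is known from capillary endothelium, Aqp3 from basal cells of large airways, Aqp4 from the basal side of airway cells, and Aqp5 from the apical side of alveolar type I cells and of glands.

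In Rosa26-Foxm1 lung pendrin was 10.6-fold higher, while the gamma subunit of ENaC was 1.89-fold lower and Aqp1 1.62-fold lower. The other 5 measured genes lay within 1.5-fold of wild type, Aqp3 did not exceed the floor, and no test between genotypes was possible with 1 array each. Over all 9518 measured genes of the array, 7.08% were higher by 1.5-fold or more and 8.45% were lower by 1.5-fold or more. Intensities were quantile normalised, so that both arrays had the same distribution, and values below the median intensity of the array (the floor, 1.00) were set to it. A gene was called measured if it exceeded the floor on at least 1 array. The only measure of error was the spread between probes of the same gene. Taken over 317 genes that had 2 or more measured probes, the SD that a lone probe gives to a log2 difference was 0.31, and it was 0.37 for the dimmer and 0.23 for the brighter pairs. This probe SD leaves out differences between mice and between hybridisations. Differences are compared with the 0.31 for every gene, bright or dim.

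The sequences before the starts of 4 genes are shown, since these are the genes past 1.5-fold and Scnn1b, which lies next to Scnn1g on the chromosome. Each is the 250 bases before the RefSeq gene start in GRCm38.p6, written 5′ to 3′ on the strand of the gene, with TATAAA and GGGCGG, on either strand, in capitals. They span chr12:31559985-31560234 on the minus strand for Slc26a4, and on the plus strand chr6:55336049-55336298 for Aqp1, chr7:121734229-121734478 for Scnn1g and chr7:121864788-121865037 for Scnn1b.
Slc26a4: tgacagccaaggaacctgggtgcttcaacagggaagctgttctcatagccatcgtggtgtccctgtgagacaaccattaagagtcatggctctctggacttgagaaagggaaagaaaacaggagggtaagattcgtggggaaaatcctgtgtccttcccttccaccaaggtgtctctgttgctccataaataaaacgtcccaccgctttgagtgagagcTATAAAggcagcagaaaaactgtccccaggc
Aqp1: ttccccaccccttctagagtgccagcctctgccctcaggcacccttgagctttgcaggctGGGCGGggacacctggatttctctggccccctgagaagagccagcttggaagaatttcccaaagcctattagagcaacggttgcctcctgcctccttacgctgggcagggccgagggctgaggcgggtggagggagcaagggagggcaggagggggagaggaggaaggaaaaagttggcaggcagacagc
Scnn1g: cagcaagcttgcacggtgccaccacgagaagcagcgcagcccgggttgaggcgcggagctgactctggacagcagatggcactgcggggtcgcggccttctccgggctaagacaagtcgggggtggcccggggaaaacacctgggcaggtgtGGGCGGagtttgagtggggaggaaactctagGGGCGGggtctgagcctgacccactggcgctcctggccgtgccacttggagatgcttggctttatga
Scnn1b: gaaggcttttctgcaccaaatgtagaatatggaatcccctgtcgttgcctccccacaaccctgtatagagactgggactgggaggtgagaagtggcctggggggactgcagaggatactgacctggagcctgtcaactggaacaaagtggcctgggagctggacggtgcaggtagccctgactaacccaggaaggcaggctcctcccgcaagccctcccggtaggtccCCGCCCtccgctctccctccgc
Windows of this kind were found for 8 of the 10 genes. The TATAAA of Slc26a4 begins 31 bases before the start, and Aqp3 was the other gene of the 8 with this motif, which 12.4% of 32851 windows hold. GGGCGG was found in 7 of the 8 windows, all but that of Slc26a4, and in 32.7% of all windows. The Slc26a4 window had a GC content of 49.6%, against 60.8% to 78.4% for the other 7. None of the 8 windows held TAAACA, a forkhead site found in 12.0% of all windows. Both strands were searched, and no match of one motif overlapped a match of another.

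Of the 8 measured genes 1 was at least 1.5-fold higher, against 7.08% of all measured genes. At least 1.5-fold lower were 2 of the 8, against 8.45%. With so few genes neither share can be set apart from the background. Below 0 on the log2 scale were 5 of the 8, or 62.5%, against 56.0% of all measured genes. The median log2 difference, Rosa26-Foxm1 minus wild type, was -0.29 over the 8 genes and -0.06 over all measured genes. In the plot of intensity by array, pendrin is set apart by the gap between its 2 values, the wild-type one lying near the floor.

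**Figure D1:**
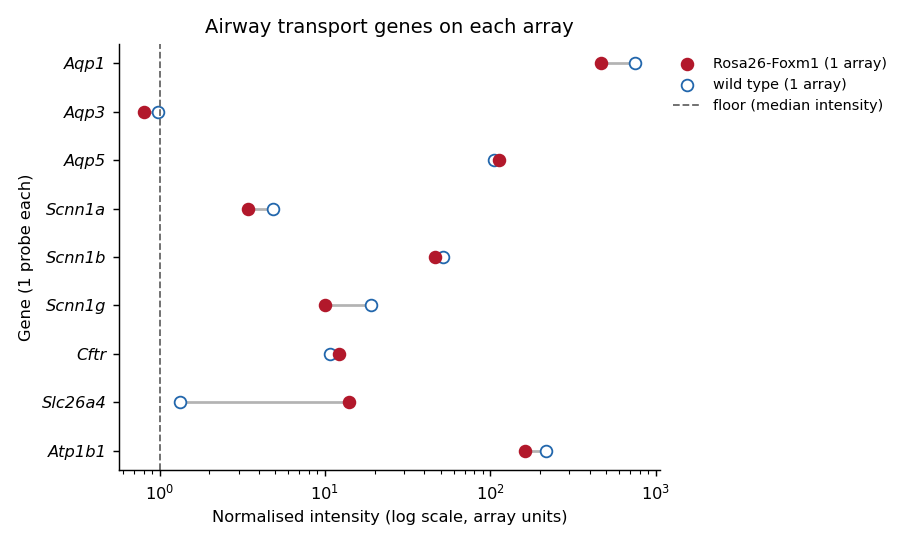
Normalised intensity (log axis, array units) of the 9 genes with a probe, in Rosa26-Foxm1 lung (filled) and wild-type lung (open), 1 array and 1 probe each; the dashed line is the floor of 1.00. Slc26a4 has the widest gap, at 14.1 against 1.33, and Aqp3 lies below the floor on both arrays.

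Among the water channels, Aqp1 had a normalised intensity of 464 in Rosa26-Foxm1 lung and 750 in wild-type lung. The difference of -0.69 on the log2 scale (1.62-fold lower) was 2.24 times the probe SD, and 523 of the 9518 measured genes had a more negative difference. This value depended on the scaling. As deposited, its intensities were 509 in Rosa26-Foxm1 and 677 in wild-type lung, 1.33-fold lower, which is within 1.5-fold.

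Aqp5, the apical water channel of type I cells, had 113 in Rosa26-Foxm1 lung and 105 in wild-type lung, a log2 difference of 0.10. That is less than the probe SD. Aqp3, which also passes glycerol, had 0.801 in Rosa26-Foxm1 lung and 0.982 in wild-type lung, both under the floor, so no fold is given. The log2 differences of Aqp1 and Aqp5 were -0.79 apart (Aqp1 minus Aqp5), 1.81 times the SD of such a gap between 2 probes that share a gene. With median scaling Aqp1 was at -0.41 and Aqp5 at 0.20. Each gene was measured by a single probe, so a difference between the genes and an error of 1 probe cannot be told apart.

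Marker genes of the cells that hold Aqp1 were lower too. Of 15 measured endothelial markers 14 were below 0, or 93.3%, against 56.0% of all measured genes. At least 1.5-fold lower were 8, or 53.3%, against 8.45%. Their median was -0.65, and only Vwf was above 0, at 0.49. The lowest was the receptor gene Calcrl at -1.15. Their summed intensity was 1812 in Rosa26-Foxm1 lung and 2744 in wild-type lung, which is 66.0% of the wild-type sum, beside 61.9% for Aqp1. Both percentages are from quantile normalised values, and the sum was not taken under other scalings. Bright genes weigh most in the sum, such as Cldn5, with 629 in Rosa26-Foxm1 lung and 940 in wild-type lung. The dimmer Ramp2 (-0.08) and Egfl7 (-0.06) hardly differed. Red cells also carry Aqp1. The 2 measured markers of red cells were both lower, Alas2, the first enzyme of haem synthesis in red cell precursors, by 0.94 on the log2 scale and the globin Hba-a1 by 0.37. Slc4a1, Epb42 and Ank1, which encode red cell membrane proteins, were below the floor on both arrays. Mesothelial markers had a median of -0.03 over 6 genes. The part of these cell types in the Aqp1 value was not tested, and in whole lung fewer cells of a type and less RNA per cell cannot be told apart.

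The 3 subunits of ENaC were all below 0, by unequal amounts. Scnn1g, the gamma subunit, had 10.1 in Rosa26-Foxm1 lung and 19.1 in wild-type lung, a log2 difference of -0.92 (1.89-fold lower), or 2.99 times the probe SD. Only 208 measured genes had a more negative difference. Scnn1a, the alpha subunit, which the channel needs in order to conduct, had 3.44 in Rosa26-Foxm1 lung and 4.83 in wild-type lung, a log2 difference of -0.49 (1.40-fold lower). Scnn1b, the beta subunit, had 46.4 in Rosa26-Foxm1 lung and 51.5 in wild-type lung, a log2 difference of -0.15, less than the probe SD.

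Scnn1b and Scnn1g are direct neighbours on chromosome 7, and their log2 differences were -0.77 apart (Scnn1g minus Scnn1b), 1.76 times that SD. The gaps of Scnn1g to Scnn1a (-0.43) and of Scnn1a to Scnn1b (-0.34) were no larger than that SD of 0.44. Each subunit was measured by a single probe, so a difference between subunits and an error of 1 probe cannot be told apart. Scnn1g was 1.83-fold to 1.89-fold lower under every setting tried, whereas Scnn1b stayed between -0.15 and -0.09.

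Atp1b1, the beta subunit of the sodium pump, had 162 in Rosa26-Foxm1 lung and 217 in wild-type lung, a log2 difference of -0.43 (1.34-fold lower), or 1.38 times the probe SD. With median scaling it was -0.26, less than the probe SD. Of the other beta subunits Atp1b3 was at -0.11 and Atp1b2 below the floor on both arrays.

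Type I cells, type II cells and club cells are known to carry ENaC and the pump, and markers of these cells were mixed. Of 9 measured type I markers 6 were below 0, or 66.7%, against 56.0% of all measured genes. At least 1.5-fold lower were 3, or 33.3%, against 8.45%, namely Cav1 (-0.83), Clic5 (-0.77) and Vegfa (-0.74). The receptor Ager was at -0.20 and the membrane glycoprotein Pdpn at 0.24. The median was -0.20, and the summed intensity 1534 in Rosa26-Foxm1 lung and 1774 in wild-type lung. For type II cells the median was -0.40 over 8 markers, from the transcription factor Etv5 at -0.71 to the surfactant protein gene Sftpd at 0.94, with sums of 5455 in Rosa26-Foxm1 lung and 5850 in wild-type lung. For club cells it was -0.34 over 7 markers, from Aldh1a1 at -0.63 to Gsta3 at 0.25, with sums of 6578 in Rosa26-Foxm1 lung and 7981 in wild-type lung. The part of these cells in the values of Scnn1a, Scnn1g and Atp1b1 was not tested.

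**Figure D2:**
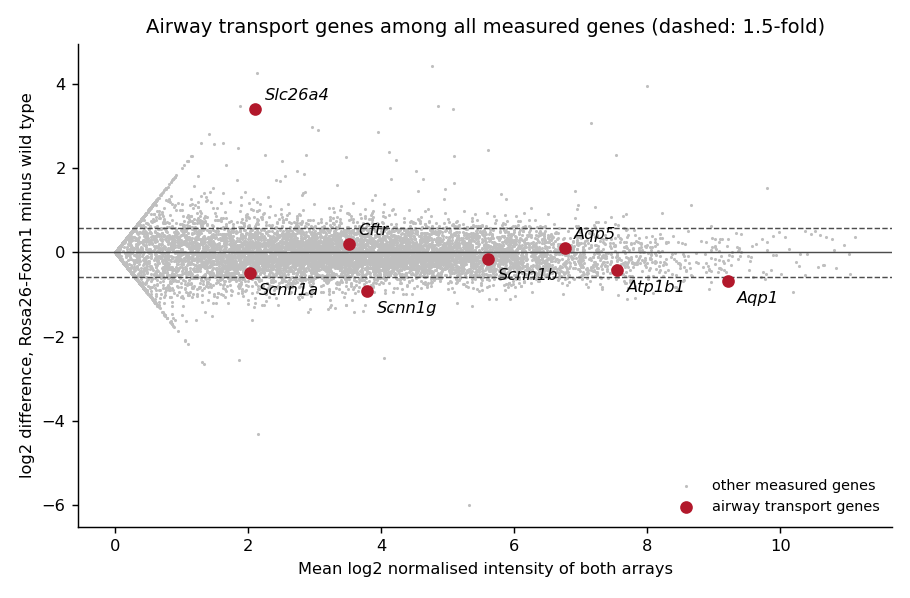
Log2 difference, Rosa26-Foxm1 minus wild type, against mean log2 normalised intensity for all 9518 measured genes (grey) and the 8 measured airway transport genes (red); dashed lines mark 1.5-fold. Slc26a4, at 3.40, is the gene of the set farthest from 0, and Scnn1g and Aqp1 lie below the lower line.

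Pendrin, the product of Slc26a4, exchanges chloride for bicarbonate, iodide and thiocyanate at the apical membrane and is best known from thyroid, inner ear and kidney. In airway epithelium it is known to be induced by the cytokines IL-4, IL-13 and IL-17. Its probe had 14.1 in Rosa26-Foxm1 lung and 1.33 in wild-type lung, a log2 difference of 3.40 (10.6-fold higher), or 11.0 times the probe SD. The mean log2 intensity of Slc26a4, 2.11, was below the 3.39 that parted dimmer from brighter pairs, and dimmer pairs had the larger SD of 0.37. Only 7 of the 9518 measured genes had a larger difference, and 1.98% were at least 2-fold higher. As deposited, the intensities were 14.1 in Rosa26-Foxm1 lung and 1.35 in wild-type lung. The wild-type value stood just over the floor, so the size of the fold rests on a dim spot. With the floor raised to the 75th percentile (7.47) the difference was at least 1.88-fold.

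Cftr, by contrast, had 12.2 in Rosa26-Foxm1 lung and 10.7 in wild-type lung, a log2 difference of 0.20, less than the probe SD. The gap between pendrin and Cftr was 3.21 on the log2 scale, 7.36 times the SD of a gap between 2 probes that share a gene. The genes next to Slc26a4 on chromosome 12 differed by less. Cbll1 on one side was at -0.12, with 7.23 in Rosa26-Foxm1 lung and 7.84 in wild-type lung. Bcap29 on the other side was 1.79-fold higher, with 7.66 in Rosa26-Foxm1 lung and 4.27 in wild-type lung. Slc26a3, the related exchanger beyond Cbll1, was below the floor on both arrays.

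Thyroid is rich in pendrin, and the other thyroid markers with a probe were dim. Thyroglobulin (Tg), its most abundant product, had 1.55 in Rosa26-Foxm1 lung and 1.90 in wild-type lung. Of the thyroid markers Pax8 exceeded the floor on neither array, and the iodide transporter Slc5a5 was below it in Rosa26-Foxm1 lung. The receptor Tshr was near the floor, at 1.04 in Rosa26-Foxm1 lung. Iyd, an iodide-recycling enzyme, had 2.30 in Rosa26-Foxm1 lung and did not exceed the floor in wild-type lung. Iyd was thus at least 2.30-fold higher, and Slc5a5 at least 1.64-fold lower. The summed intensity of the 5 markers, each value below the floor counted at the floor, was 6.90 in Rosa26-Foxm1 lung and 6.55 in wild-type lung. Several of the summed values were the floor itself, so these sums cannot measure how much thyroid RNA was present. The part of thyroid tissue in the pendrin value was not tested.

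Secretory cells of the airway can carry pendrin, and their markers did not move together. Of 6 measured goblet and mucous markers 2 were at least 1.5-fold higher, 33.3% against 7.08% of all measured genes. They were Pigr, the receptor that carries polymeric immunoglobulins across epithelium, at 2.42 on the log2 scale and the lectin Itln1 at 0.88. The mucin Muc5b was at -0.55, Agr2, which assists mucin folding, at 0.09 and the regulator Spdef below the floor on both arrays. The list's summed intensity was 211 in Rosa26-Foxm1 lung and 112 in wild-type lung, and most of that gap came from Pigr, with 112 in Rosa26-Foxm1 lung and 21.0 in wild-type lung. The median was 0.19 for the 6 goblet and mucous markers and 0.17 for 5 of submucosal glands. For 7 markers of ciliated cells, another airway cell type, it was 0.09. Spag17 (0.84) and Meig1 (0.76) were at least 1.5-fold higher, 28.6% of the 7 against 7.08% of all measured genes, and none was 1.5-fold lower. The part of these cells in the pendrin value was not tested.

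Of the cytokines themselves, Il4, Il13 and Il17a were below the floor on both arrays, as were 7 others of the 19 genes of that list with a probe. Of the 9 measured genes 1 was at least 1.5-fold higher and 1 lower, 11.1% each, against 7.08% and 8.45% of all measured genes. With the floor at the 25th percentile 5 were higher and 2 lower, where 10.9% and 12.4% of all genes were. With no floor 5 were higher and 3 lower, where 13.2% and 14.4% of all genes were. Lower floors admit more genes of the list, so these counts are not out of 9, and with no floor all 19 count. Retnla, a secreted product of alternatively activated macrophages and of epithelium, had 109 in Rosa26-Foxm1 lung and 52.8 in wild-type lung (2.07-fold higher). Stat6, the transcription factor downstream of the IL-4 receptor, had 11.9 in Rosa26-Foxm1 lung and 19.5 in wild-type lung (1.64-fold lower). Chia1, a chitinase of airway epithelium, had 187 in Rosa26-Foxm1 lung and 232 in wild-type lung (-0.31). The receptor chains Il17ra (-0.53), Il4ra (-0.34) and Il13ra1 (-0.15) were below 0. Clca1, a secreted regulator of chloride channels induced by IL-13, had 1.11 in Rosa26-Foxm1 lung and did not exceed the floor in wild-type lung. Clca1 was thus at least 1.10-fold higher, and it was 3.00-fold higher with the floor at the 25th percentile and 6.42-fold with none. Muc5ac, Duox1 and Duoxa1 were not analysed here.

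Of 129 further transport and regulatory genes, in 9 lists, 70 were measured, 13 of them on 1 array only, where the difference is a bound. At least 1.5-fold higher were 8 of them and at least 1.5-fold lower 3, and the median log2 difference was near 0, at -0.0037. Those 8 are 11.4% of the measured genes and the 3 are 4.29%, beside 7.08% and 8.45% of all measured genes.

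**Figure D3:**
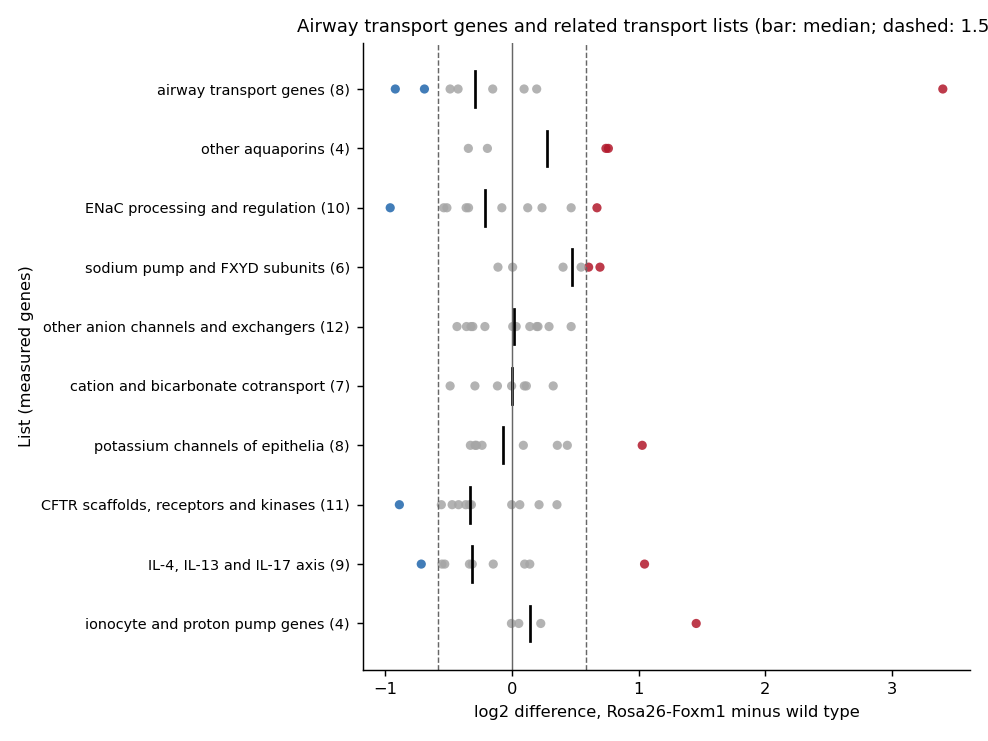
Log2 difference, Rosa26-Foxm1 minus wild type, of each measured gene (point) in the airway transport set and in 9 related lists; black bars are medians, dashed lines mark 1.5-fold, and red and blue points lie above and below them. The number of measured genes stands in brackets, and Slc26a4, at 3.40, lies farther from 0 than any gene of the other lists.

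Of the 7 other aquaporins 4 were measured. Aqp9, a channel for water and glycerol known from leukocytes and liver, had 3.90 in Rosa26-Foxm1 lung and 2.33 in wild-type lung (1.67-fold higher). Aqp11, found inside cells, had 7.52 in Rosa26-Foxm1 lung and 4.44 in wild-type lung (1.70-fold higher). Aqp2 and Aqp6, which flank Aqp5 on chromosome 15, were below the floor on both arrays, as was Aqp7.

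For processing and regulation of ENaC, 10 of 15 genes were measured, with a median of -0.21. Tmprss4, a membrane serine protease that can activate the channel, had 23.4 in Rosa26-Foxm1 lung and 14.7 in wild-type lung (1.59-fold higher). The activating protease Prss8 (0.12) and the protease inhibitors Spint1 (-0.08) and Spint2 (0.24) differed by less than the probe SD. Nr3c1, the glucocorticoid receptor, had 1.54 in Rosa26-Foxm1 lung and 3.00 in wild-type lung (1.95-fold lower). The glucocorticoid-induced genes Tsc22d3 (-0.54) and Sgk1 (-0.51) were below 0 and within 1.5-fold, and Sgk1 is a kinase that keeps ENaC at the membrane. Nedd4l, the ligase that removes the channel, was not analysed here.

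Of 6 measured genes of other sodium pump subunits and their small FXYD partners 5 were above 0, with a median of 0.47. Below 0 was 1, or 16.7%, against 56.0% of all measured genes. Fxyd2, a regulator of pump affinity, had 2.89 in Rosa26-Foxm1 lung and 1.79 in wild-type lung (1.62-fold higher). Fxyd4 had 1.53 in Rosa26-Foxm1 lung, at least 1.52-fold higher, since the wild type did not exceed the floor. Fxyd6, brighter than these, was at 0.01.

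Among 12 measured genes of other anion channels and exchangers none was past 1.5-fold with the floor at the median, but 5 of them were below it on 1 array, so that their differences are bounds. With the floor at the 25th percentile or with none, 2 were at least 1.5-fold higher and 4 lower. Lower floors admit more genes of the list, and with none all 16 with a probe count. Of all genes 10.9% were higher and 12.4% lower with the floor at the 25th percentile, and 13.2% and 14.4% with none. For the genes that both arrays measured, the log2 differences ran from Ano6, a calcium-activated scramblase and channel, at -0.43 to Slc26a6, an anion exchanger, at 0.29. Slc26a11, which did not exceed the floor in wild-type lung, was at least 1.38-fold higher. Ano1, the calcium-activated chloride channel of airway, had 119 in Rosa26-Foxm1 lung and 138 in wild-type lung (-0.21), and Slc26a9, another chloride transporter of airway, had 9.76 in Rosa26-Foxm1 lung and 8.47 in wild-type lung (0.21). Cation and bicarbonate cotransporters and carbonic anhydrases likewise had none of 7 past 1.5-fold, from Slc12a4 at -0.49 to Slc12a2 at 0.33. Slc12a2 is the basolateral entry route of chloride for secretion.

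Among epithelial potassium channels 1 of 8 measured genes was at least 1.5-fold higher, 12.5% against 7.08% of all measured genes, and 0 were 1.5-fold lower. Kcnn4, a calcium-activated channel of epithelium, macrophages and lymphocytes, had 5.90 in Rosa26-Foxm1 lung and 2.89 in wild-type lung (2.04-fold higher). Kcnma1, a large-conductance calcium-activated channel, was below the floor in Rosa26-Foxm1 lung and had 1.26 in wild-type lung, and so was at least 1.26-fold lower. With the floor at the 25th percentile its log2 difference was -1.61. Of 11 measured scaffolds, receptors and kinases that act on Cftr 8 were below 0, with a median of -0.34. That is 72.7%, against 56.0% of all measured genes. Vipr1, a receptor for vasoactive intestinal peptide, had 1.02 in Rosa26-Foxm1 lung and 1.90 in wild-type lung (1.85-fold lower), both near the floor, and the scaffold Slc9a3r1 was the highest at 0.36.

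Ionocytes, the rare airway cells rich in Cftr, were hardly visible by their defining factors. Foxi1 was below the floor in Rosa26-Foxm1 lung and stood at it, with 1.01, in wild-type lung, and Ascl3 was below the floor on both arrays. Atp6v0d2, a proton pump subunit shared by ionocytes, macrophages and osteoclasts, had 39.0 in Rosa26-Foxm1 lung and 14.2 in wild-type lung (2.74-fold higher). Another pump subunit, Atp6v1c2, was at 0.05. Beside Atp6v0d2, Kcnn4, Aqp9 and Retnla, which macrophages also express, stand the macrophage markers. Of the 9 measured 3 (33.3%) were at least 1.5-fold higher and 2 (22.2%) lower, against 7.08% and 8.45% of all measured genes. They ran from Siglecf at -1.26 to Gpnmb at 4.42. Their summed intensity was 1841 in Rosa26-Foxm1 lung and 1217 in wild-type lung. The part of macrophages in the values of Atp6v0d2, Kcnn4, Aqp9 and Retnla was not tested.

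**Figure D4:**
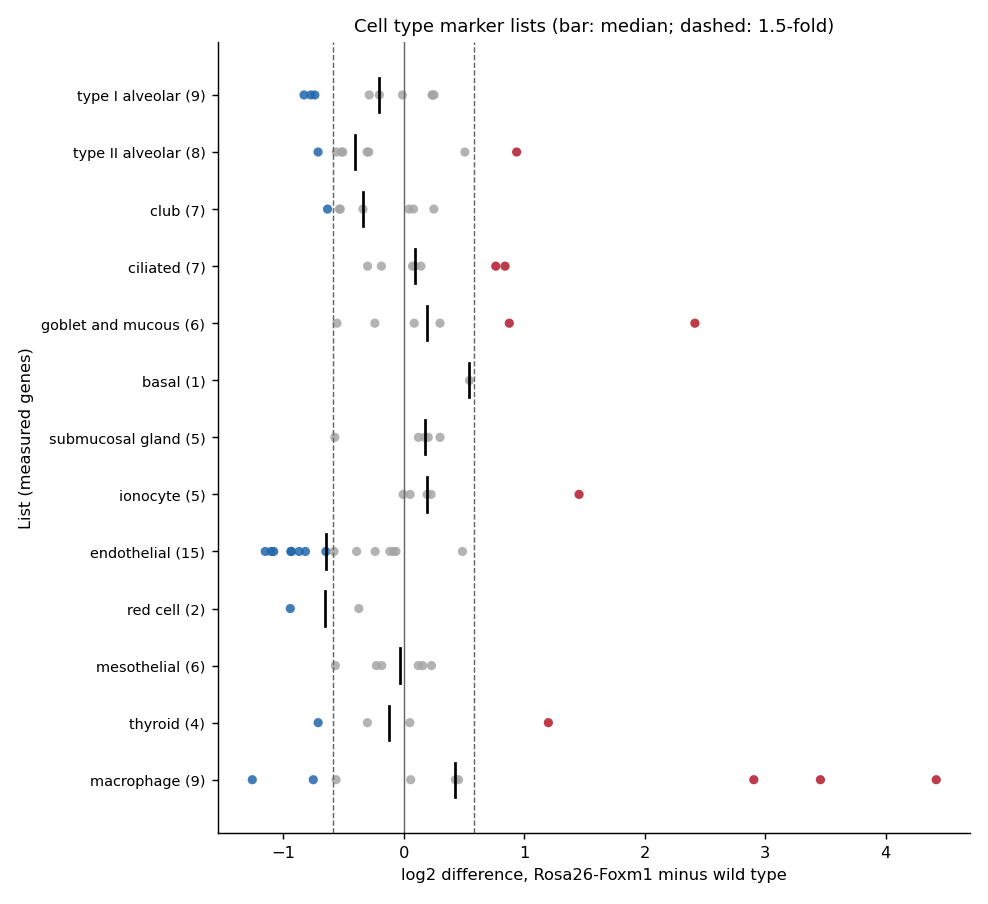
Log2 difference, Rosa26-Foxm1 minus wild type, of the measured markers (points) of 13 cell types or tissues; black bars are medians, dashed lines mark 1.5-fold, and red and blue points lie above and below them. Endothelial markers centre at -0.65, while macrophage markers run from -1.26 to 4.42.

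Both arrays carried the markers of lung. Of the surfactant protein genes, Sftpc had 859 in Rosa26-Foxm1 lung and 1228 in wild-type lung, Sftpa1 1757 in Rosa26-Foxm1 lung and 1236 in wild-type lung, and Sftpd 413 in Rosa26-Foxm1 lung and 216 in wild-type lung. The surfactant genes thus did not move one way. The intensity of the club cell gene Scgb1a1 was 1767 in Rosa26-Foxm1 lung and 2544 in wild-type lung. Basal cell markers, by contrast, were below the floor on both arrays except for Krt14, which had 1.46 in Rosa26-Foxm1 lung and did not exceed the floor in wild-type lung. Aqp3, itself a gene of basal cells, was likewise below the floor. Foxm1, by its single probe, had 1.23 in Rosa26-Foxm1 lung and 1.13 in wild-type lung, a log2 difference of 0.11, less than the probe SD, so it does not check the genotype. The sequence the probe targets was not used here.

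**Figure D5:**
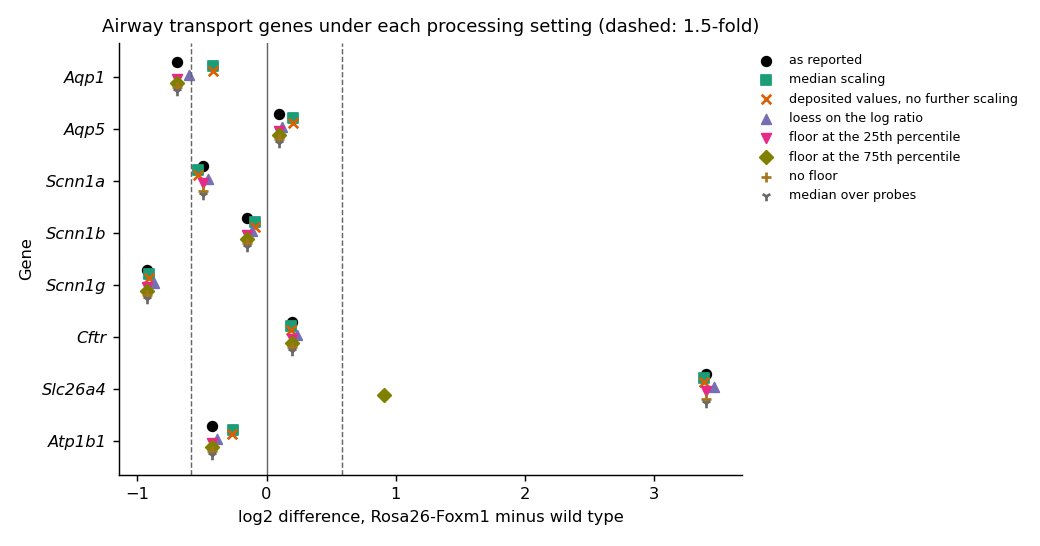
Log2 difference, Rosa26-Foxm1 minus wild type, of the 8 measured genes as reported and under 7 other processing settings; dashed lines mark 1.5-fold. Aqp1 moved inside the lower line with median scaling and as deposited, at -0.41, and Slc26a4 moved to 0.91 with the floor at the 75th percentile.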

How the data were processed

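Left lung lobes were pooled from 3 mice per genotype, and RNA labelled with digoxigenin was hybridised to 1-colour chemiluminescent arrays, per the labels' protocols. The authors deposited linear probe intensities, 1 per probe and array, with medians of 1.00 on both arrays. The sources used here do not give how images were read and scaled. Of 33012 probes, 14411 had 1 gene symbol, 247 had several and stayed unnamed, and 18354 had none in the table used. Symbols were updated by gene ID to GRCm38.p6.

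Intensities were quantile normalised (Python 3.11.15, numpy 2.4.6, pandas 2.3.3), floored at the 50th percentile and put on the log2 scale, and a gene with several probes was given by the one with the highest mean. The steps were tested on simulated data. With 1 array per group there is no p-value, and precision is limited by the number of arrays. Sizes of 1.5-fold and 2-fold describe differences. Alternatives were median scaling, deposited values, loess (span 0.3), other floors and the median over probes.

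The genes of the set and the lists were chosen with earlier results of these data known. Named were all genes of the set, from each transport list the genes past 1.5-fold and, where fewer than 2 passed, its highest and lowest, and from marker lists genes that give a range. Others were chosen after their values were seen. Summed intensities count a value below the floor at the floor. With 2 arrays no genes of like pattern were sought. Lungs taken at 24 weeks were not analysed here.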

Additional observations from a re-analysis of the deposited data

How the results depend on the processing

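Of the 8 measured transport genes, 8 kept the sign of their difference under each setting in which they were measured, and the median over them ran from -0.29 to -0.15. With median scaling and with the deposited values the number at least 1.5-fold lower was 1, against 2 as reported, because Aqp1 stood at -0.41. With the floor at the 75th percentile Slc26a4 was at 0.91, a lower bound set by the floor, and Scnn1a was no longer measured. Over the 129 further genes, those at least 1.5-fold higher numbered 16 with the floor at the 25th percentile or with none and 3 with it at the 75th, against 8 as reported. At least 1.5-fold lower were 5 with median scaling or the deposited values, 14 and 17 with the floor at the 25th percentile and with none, and 1 with it at the 75th, against 3 as reported. Lower floors admit dimmer genes, and of all genes 10.9% were then higher and 12.4% lower with the floor at the 25th percentile, and 13.2% higher and 14.4% lower with none. Among the further genes Car2, Snap23, Car4 and Slc4a3 changed sign in at least 1 setting. Their log2 differences ran from -0.0030 to 0.06 for Car2, from -0.0024 to 0.06 for Snap23, from -0.11 to 0.03 for Car4 and from -0.03 to 0.66 for Slc4a3. No paired analysis was possible because each genotype had 1 array.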
